A study of Homo sapiens with 12 samples.

Results

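The p53 pathway and related growth arrest genes were followed across the treatments through CDKN1A, MDM2, PPM1D, SESN1, TP53INP1 and FAS, which are known p53 targets, through the growth arrest and DNA damage genes GADD45A and GADD45B, and through the antiproliferative genes BTG1 and BTG2. They were chosen by name, with earlier results of these data known, as the 10 genes of that list among the 20263 genes of the deposited table. All 10 passed the filter on low counts, as did 14287 genes in all. The gene lists used below were also chosen with such results known. The shares called among members and lists are therefore descriptions beside the shares over all genes. RNA-seq was performed on A375 cells, an established human melanoma line, in 12 libraries that fall into 4 groups of 3. The cells of all groups were labelled as wild type and differed only in treatment: untreated cells (Ctrl), cells given DdBIC (written DBIC in the sample labels), cells given Hemin, and cells given both (DBIC+Hemin in the labels, DdBIC+Hemin here). DdBIC is the small molecule dodecyl 1H-benzo[d]imidazole-5-carboxylate, which the study used to induce pyroptosis, and hemin is a soluble form of heme. The dose and the duration behind these libraries are not given in the sources used here. The comparisons ask what DdBIC did to each gene, and whether hemin changed that.

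The transcription factor p53 is held at a low level by the ubiquitin ligase MDM2 and is released from it when DNA is damaged or cells are stressed. It then switches on CDKN1A, whose product p21 inhibits cyclin-dependent kinases, together with genes that repair DNA, limit oxidants, open a route to cell death, or end the response. The GADD45 and BTG genes are switched on by p53 in some settings and by other stress and growth factor pathways in others.

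Sequences of the region before the transcription start were read for the members from RefSeq (build GRCh38.p14), and 8 of the 10 members matched an entry, not GADD45A and TP53INP1. Within the 250 bases before each start, 9 motifs were searched on both strands. These were the cAMP response element TGACGTCA, the AP-1 site TGANTCA, the EGR site GCGNGGGCG, the C/EBP-ATF site TGATGCAA, the TATA box TATAAA, the CCAAT box CCAAT, and by name the NF-kB site, the CArG box and the p53 site. The last of these is a pair of adjoining half-sites with at most 3 of its 20 positions away from the consensus. The windows of 5 members are shown with the matches in capitals, without any base that GENCODE 29 places in a UTR: those of GADD45B and BTG2, which carried large responses to DdBIC, that of PPM1D, which holds a cAMP response element, and those of MDM2 and SESN1 that hold p53 sites.
GADD45B, chr19:2475877-2476126, plus strand: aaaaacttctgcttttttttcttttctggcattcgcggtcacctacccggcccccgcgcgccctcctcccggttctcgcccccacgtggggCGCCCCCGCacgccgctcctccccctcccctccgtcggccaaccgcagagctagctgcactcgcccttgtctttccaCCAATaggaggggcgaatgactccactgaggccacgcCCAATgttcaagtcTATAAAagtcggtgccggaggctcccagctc
BTG2, chr1:203305269-203305490, plus strand: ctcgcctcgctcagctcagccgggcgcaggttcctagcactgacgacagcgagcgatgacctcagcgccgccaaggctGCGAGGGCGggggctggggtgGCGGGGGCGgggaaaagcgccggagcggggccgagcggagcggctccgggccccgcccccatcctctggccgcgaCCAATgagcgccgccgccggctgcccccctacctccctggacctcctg
PPM1D, chr17:60599943-60600182, plus strand: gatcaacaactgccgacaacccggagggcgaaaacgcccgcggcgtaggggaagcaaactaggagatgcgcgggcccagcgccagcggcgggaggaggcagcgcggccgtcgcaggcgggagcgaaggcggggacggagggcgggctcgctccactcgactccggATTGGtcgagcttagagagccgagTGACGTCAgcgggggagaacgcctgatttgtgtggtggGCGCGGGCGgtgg
MDM2, chr12:68808767-68809001, plus strand: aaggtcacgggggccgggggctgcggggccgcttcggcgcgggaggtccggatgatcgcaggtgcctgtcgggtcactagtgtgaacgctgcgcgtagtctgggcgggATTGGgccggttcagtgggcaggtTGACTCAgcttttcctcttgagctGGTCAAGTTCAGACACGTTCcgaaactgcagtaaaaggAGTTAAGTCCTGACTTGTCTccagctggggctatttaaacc
SESN1, chr6:109008989-109009238, minus strand: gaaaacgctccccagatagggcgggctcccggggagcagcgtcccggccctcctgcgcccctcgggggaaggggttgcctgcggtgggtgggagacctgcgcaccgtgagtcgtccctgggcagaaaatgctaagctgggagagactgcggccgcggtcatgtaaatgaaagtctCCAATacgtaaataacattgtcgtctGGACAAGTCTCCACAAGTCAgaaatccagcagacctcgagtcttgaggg

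The p53 site was present in 4.37% of the 35097 windows of this length. MDM2 held it at 2 places in the window of its inner start, with 2 mismatches at 94 to 75 bases and 3 mismatches at 56 to 37 bases before that start, beside an AP-1 site (present in 6.57% of windows). SESN1 held 1 such site in one of its 3 windows, with 3 mismatches, and FAS held 1 in one of its 3, with 2 mismatches. No match to it was found in the windows of CDKN1A, BTG1, BTG2, GADD45B and PPM1D, which says only that those letters are not in these windows. The EGR site, present in 8.41% of windows, was found in those of BTG2 (at 2 places), GADD45B, PPM1D and FAS. The cAMP response element, present in 1.65%, was found in that of PPM1D, and the TATA box, present in 10.7%, in those of BTG1 and GADD45B. One window of FAS held an AP-1 site and another an NF-kB site, present in 5.20%. The CCAAT box, present in 32.0%, was found in windows of 6 members, MDM2, BTG1, BTG2, GADD45B, SESN1 and PPM1D. The window of CDKN1A held none of the 9.

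The 12 libraries held between 37951275 and 44358912 counts each, and no 2 of them were identical. The labels do not say whether the 3 libraries of a group came from separate cultures, so the p-values measure the spread between these libraries, which may be technical. In bulk RNA, a gene expressed in fewer cells and a gene with less RNA per cell cannot be told apart. Of 8 melanocyte markers, SOX10 was at a mean of 549 to 741 CPM (counts scaled to library size, with TMM factors) in the 4 groups, MITF at 11.8 to 18.4, S100B at 7.38 to 11.8 and S100A1 at 4.14 to 5.87. PMEL, MLANA and DCT stayed below 1 CPM in every group mean, and TYR had at most 2 counts in any library. Among markers of other cell types, PTPRC had 0 counts in every library, CD3E and ALB at most 2, EPCAM at most 10 and PECAM1 between 14 and 40.

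A limit on 1 member has to be stated before its results. The deposited counts and the deposited TPM values (a level per gene length, scaled to the library) of MDM2 did not move together. When the ratio of count to TPM was divided by its median in each library, it spanned 0.473 to 2.55 for MDM2, a 5.39-fold spread. For the other 9 members that spread was between 1.01-fold and 1.37-fold, and its median over the 10121 genes with more than 200 counts in every library was 1.095-fold. Of those genes, 150 (1.48%) had a spread over 2-fold. Why counts and TPM diverge for MDM2 was not tested.

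DdBIC raised 6 of the 10 members against Ctrl and lowered 2, at an adjusted p under 0.05 in edgeR's quasi-likelihood test. The background was 37.2% of all genes tested, with 20.0% higher and 17.2% lower. Of all called genes 53.8% were higher, and 39.95% under upper-quartile scaling, which called the same number of members. The 4 GADD45 and BTG genes rose most, GADD45B 5.28-fold, GADD45A 5.17-fold, BTG1 2.37-fold and BTG2 2.01-fold. CDKN1A and PPM1D rose by smaller factors, SESN1 and TP53INP1 fell, and FAS and MDM2 did not pass the test. The median log2 fold change of the members was 0.55, beside -0.01 over all genes tested.

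**Figure D1:**
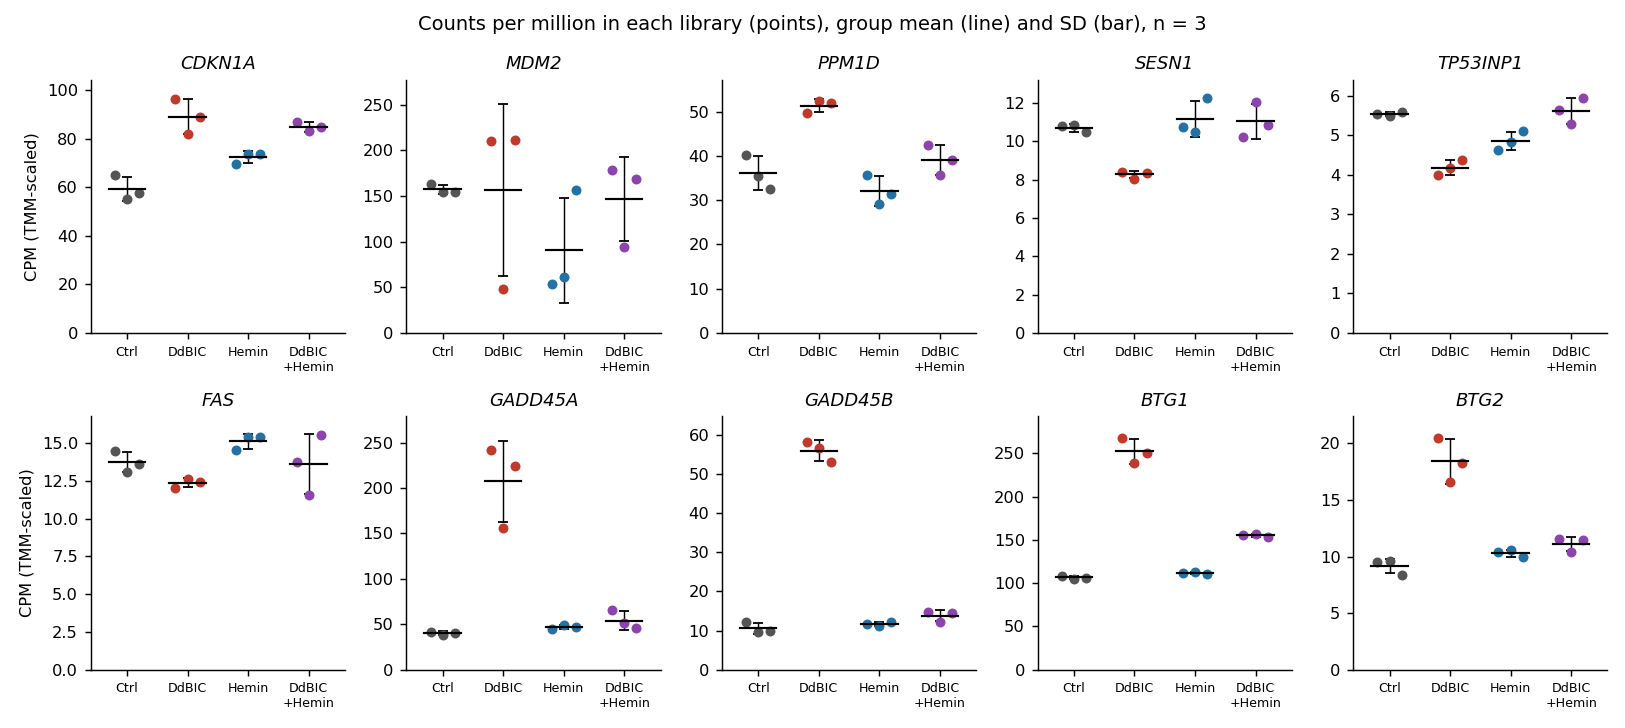
CPM (TMM-scaled, vertical axis from 0) of the 10 members in each of the 12 libraries, by treatment group, with the group mean as a line and the SD as a bar (n = 3). The 3 DdBIC libraries stand above all others for GADD45A, GADD45B, BTG1, BTG2 and PPM1D and below all others for SESN1 and TP53INP1, and MDM2 varies widely within 3 of the groups.

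CDKN1A (ENSG00000124762, chr6:36676460-36687339 in hg38, plus strand) encodes p21, the kinase inhibitor through which p53 halts the cell cycle. Its levels were 64.9, 55.3 and 57.5 CPM in the Ctrl libraries, 96.2, 82.0 and 89.0 in DdBIC, 69.5, 73.9 and 73.7 in Hemin, and 86.9, 83.0 and 84.7 in DdBIC+Hemin. Every treated library was thus above every Ctrl library, and the DdBIC and DdBIC+Hemin libraries overlapped each other but no other group. DdBIC raised CDKN1A by 0.59 ± 0.07 (log2 fold change ± SE, n = 3 per group, edgeR adjusted p = 4.62e-05), and DdBIC+Hemin was higher than Ctrl by 0.52 ± 0.07 (adjusted p = 0.000545). Adding hemin to DdBIC changed CDKN1A by -0.07 ± 0.07 (adjusted p = 0.480), so that no fall was detectable in this gene. In GENCODE 29, 146 of its exon bases are shared with DINOL on the opposite strand.

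CDKN1A was also the single member called in Hemin against Ctrl, where 4.06% of all genes tested were called. Its 3 Hemin and 3 Ctrl libraries did not overlap, which was so for 6 of the 10 members and 25.1% of all genes tested. CDKN1A was higher by 0.29 ± 0.07 (edgeR adjusted p = 0.0373). That call was lost in 7 of 13 alternative analyses, with adjusted p up to 0.135, and 5 of the 7 left out 1 library: Ctrl replicate 2 or 3, or any of the 3 Hemin libraries.

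MDM2 (ENSG00000135679, chr12:68808176-68850686, plus strand) encodes the ligase that marks p53 for degradation and is itself a p53 target. From the counts it was at 163, 154 and 155 CPM in Ctrl, 211, 47.9 and 212 in DdBIC, 54.2, 61.0 and 157 in Hemin, and 179, 94.4 and 168 in DdBIC+Hemin. DdBIC replicate 2 lay far below the other DdBIC libraries, Hemin replicate 3 far above the other Hemin libraries, and all groups overlapped DdBIC. In TPM it was at 71.0, 63.9 and 47.3 in Ctrl, 95.0, 78.4 and 80.4 in DdBIC, 48.6, 59.7 and 54.4 in Hemin, and 67.7, 55.5 and 69.3 in DdBIC+Hemin. On that scale the 3 DdBIC libraries were above the other 9.

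The test on counts gave -0.01 ± 0.57 for MDM2 in DdBIC against Ctrl (log2, edgeR adjusted p = 0.994), and 0.42 without DdBIC replicate 2. A limma test on log2(TPM + 1), added after the counts had been seen, gave 0.49 ± 0.15 (adjusted p = 0.0287). For DdBIC+Hemin against DdBIC the same limma test gave -0.39 ± 0.15 (adjusted p = 0.0766), beside -0.09 ± 0.57 from the counts (edgeR adjusted p = 0.927). Hemin against Ctrl was at -0.79 ± 0.58 from the counts (edgeR adjusted p = 0.572) and -0.15 from TPM, DdBIC+Hemin against Hemin at 0.70 ± 0.58 (adjusted p = 0.576) and 0.24, and DdBIC+Hemin against Ctrl at -0.10 ± 0.57 (adjusted p = 0.945) and 0.09. For the difference between the DdBIC effects with and without hemin the counts gave 0.71 ± 0.81 (edgeR adjusted p = 0.637) and TPM -0.25, and MDM2 was called in none of these. The TPM analysis changed both the unit and the test, and the counts alone also gave 0.018 without Ctrl replicate 1, so that they hold no direction for MDM2 in DdBIC against Ctrl. In GENCODE 29, 785 of the exon bases of MDM2 are shared with AC025423.4 and 133 with the carboxypeptidase gene CPM, both on the opposite strand, and 439 with the pseudogene AC025423.2 on the same strand. The part of these overlaps in the divergence was not tested.

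**Figure D2:**
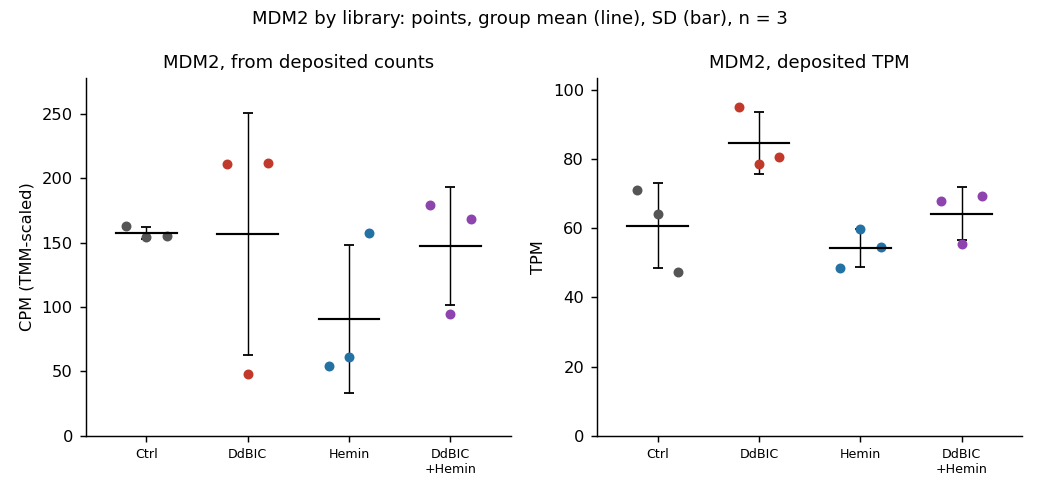
MDM2 in each library from the deposited counts (left, TMM-scaled CPM) and as deposited TPM (right), both axes from 0, with the group mean as a line and the SD as a bar (n = 3). DdBIC replicate 2 is at 47.9 CPM on the left and at 78.4 TPM on the right, where the 3 DdBIC libraries lie above the other 9.

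PPM1D (ENSG00000170836, chr17:60600183-60666280, plus strand) encodes the phosphatase WIP1, which removes activating phosphates from p53 and its kinases and so ends the response. It was at 40.1, 35.5 and 32.6 CPM in Ctrl, 49.6, 52.3 and 51.9 in DdBIC, 35.7, 29.2 and 31.3 in Hemin, and 42.4, 35.6 and 39.0 in DdBIC+Hemin. The DdBIC libraries were the highest 3 of the 12, and the other groups overlapped each other. DdBIC raised PPM1D by 0.51 ± 0.09 (edgeR adjusted p = 0.00120), and its level in DdBIC+Hemin against Ctrl differed by 0.11 ± 0.09 (adjusted p = 0.501).

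SESN1 (ENSG00000080546, chr6:108986437-109094819, minus strand) encodes sestrin 1, which limits mTORC1 activity and oxidants under stress. It was at 10.8, 10.9 and 10.5 CPM in Ctrl, 8.42, 8.04 and 8.37 in DdBIC, 10.7, 10.5 and 12.3 in Hemin, and 10.2, 12.1 and 10.9 in DdBIC+Hemin. The 3 DdBIC libraries were the lowest of all, and the other 3 groups overlapped. SESN1 fell by 0.37 ± 0.08 on the log2 scale in DdBIC against Ctrl (edgeR adjusted p = 0.00382), the direction opposite to that of the GADD45 and BTG genes. It shares 363 exon bases with AL390208.1 on the opposite strand.

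TP53INP1 (ENSG00000164938, chr8:94925972-94949411, minus strand) encodes a p53 partner that takes part in autophagy and death. It was the lowest of the members, at 5.53, 5.49 and 5.58 CPM in Ctrl, 3.99, 4.18 and 4.37 in DdBIC, 4.63, 4.82 and 5.10 in Hemin, and 5.63, 5.27 and 5.93 in DdBIC+Hemin. The DdBIC libraries lay below all others, and the Hemin libraries lay between them and the overlapping Ctrl and DdBIC+Hemin libraries. TP53INP1 fell by 0.40 ± 0.08 in DdBIC against Ctrl (edgeR adjusted p = 0.00251). These values rest on 155 to 260 counts per library.

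FAS (ENSG00000026103, chr10:88990582-89015785, plus strand) encodes a death receptor at the cell surface. It was at 14.4, 13.1 and 13.6 CPM in Ctrl, 12.1, 12.6 and 12.4 in DdBIC, 14.5, 15.4 and 15.4 in Hemin, and 13.7, 11.5 and 15.5 in DdBIC+Hemin. The DdBIC libraries were below the Ctrl libraries without overlap, but the difference of -0.15 ± 0.09 did not pass the test (edgeR adjusted p = 0.242). Such a lack of overlap between DdBIC and Ctrl was seen for 7146 of the 14287 genes tested. FAS was called in no comparison from all 12 libraries, and in DdBIC+Hemin against DdBIC without DdBIC+Hemin replicate 2 (0.24, adjusted p = 0.0363). In GENCODE 29, 380 of its exon bases are shared with ACTA2 on the opposite strand, and without strand information reads there cannot be told apart.

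GADD45A (ENSG00000116717, chr1:67685061-67688338, plus strand) encodes a small nuclear protein that binds p21, PCNA and the kinase MAP3K4 after DNA damage and other stresses. Its levels were 41.8, 37.8 and 40.7 CPM in Ctrl, 241, 156 and 224 in DdBIC, 44.4, 49.1 and 46.9 in Hemin, and 65.2, 51.1 and 45.7 in DdBIC+Hemin. Each DdBIC library was above all 9 others, and DdBIC replicate 2 was the lowest of its group. The log2 fold change in DdBIC against Ctrl was 2.37 ± 0.17 (edgeR adjusted p = 4.54e-06), and 2.53 without that library.

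GADD45B (ENSG00000099860, chr19:2476127-2478259, plus strand), the relative of GADD45A that is also known as an early response to cytokines, moved by the same order of size. It was at 12.2, 9.75 and 9.83 CPM in Ctrl, 58.2, 56.6 and 53.1 in DdBIC, 11.6, 11.1 and 12.1 in Hemin, and 14.7, 12.2 and 14.5 in DdBIC+Hemin. The DdBIC libraries differed by little among themselves and stood apart from the rest. GADD45B rose by 2.40 ± 0.10 in DdBIC against Ctrl (edgeR adjusted p = 1.55e-08).

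BTG1 (ENSG00000133639, chr12:92140278-92145897, minus strand) and BTG2 encode proteins that bind the CCR4-NOT deadenylase and slow growth. BTG1 was at 108, 105 and 106 CPM in Ctrl, 268, 239 and 251 in DdBIC, 112.0, 112.5 and 111 in Hemin, and 156, 157 and 153 in DdBIC+Hemin. All 4 groups were separate for BTG1, in the order Ctrl, Hemin, DdBIC+Hemin and DdBIC. The step from Ctrl to Hemin was 0.07 ± 0.04 and did not pass the test (edgeR adjusted p = 0.395), whereas DdBIC raised BTG1 by 1.25 ± 0.04 (adjusted p = 1.41e-09). In GENCODE 29, 325 exon bases of BTG1 are shared with a transcript on the opposite strand and 503 with LINC01619 on the same strand.

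BTG2 (ENSG00000159388, chr1:203305491-203309602, plus strand), a known p53 target of the same family, was at 9.50, 9.60 and 8.42 CPM in Ctrl, 20.5, 16.6 and 18.3 in DdBIC, 10.4, 10.6 and 9.96 in Hemin, and 11.5, 10.4 and 11.4 in DdBIC+Hemin. The DdBIC libraries were again above all others, the Ctrl libraries were the lowest, and Hemin and DdBIC+Hemin overlapped. DdBIC raised BTG2 by 1.01 ± 0.09 (edgeR adjusted p = 5.61e-06).

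With hemin added to DdBIC, 7 of the 10 members differed from DdBIC alone, where 31.9% of all genes tested were called. Of the members, 5 were lower (18.4% of all genes tested) and 2 were higher (13.5%). Of all called genes 42.4% were higher here, and 59.2% under upper-quartile scaling and 29.8% from TPM with limma. This comparison shares the DdBIC libraries with DdBIC against Ctrl, and each comparison's own values are given. GADD45B was lower by a log2 fold change of -2.02 ± 0.10 (4.06-fold, edgeR adjusted p = 7.60e-08) and GADD45A by -1.94 ± 0.17 (3.84-fold, adjusted p = 2.30e-05).

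BTG2 was lower in DdBIC+Hemin than in DdBIC by -0.73 ± 0.09 (edgeR adjusted p = 8.87e-05), BTG1 by -0.70 ± 0.04 (adjusted p = 1.64e-07) and PPM1D by -0.39 ± 0.09 (adjusted p = 0.00674). SESN1 was higher by 0.42 ± 0.08 (adjusted p = 0.00230) and TP53INP1 by 0.42 ± 0.08 (adjusted p = 0.00225), and both reached levels that overlapped those of Ctrl. CDKN1A, MDM2 and FAS were not called in this comparison.

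The members that still differed from Ctrl when both compounds were present were CDKN1A, BTG1 and GADD45B, 3 of 10 where 12.4% of all genes tested were called. BTG1 was higher by 0.54 ± 0.04 (edgeR adjusted p = 5.66e-06) with no overlap between the groups, as for 31.0% of all genes tested. GADD45B was higher by 0.38 ± 0.10 (adjusted p = 0.0270), but its DdBIC+Hemin library at 12.2 CPM fell within the Ctrl range, and the call was lost in 5 of 13 alternatives, with adjusted p up to 0.105. Leaving out Ctrl replicate 2 or 3, or DdBIC+Hemin replicate 1 or 3, was enough to lose it. GADD45A differed by 0.43 ± 0.17 (adjusted p = 0.138) and BTG2 by 0.28 ± 0.09 (adjusted p = 0.0642), and GADD45A passed the threshold in DESeq2.

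Among hemin-treated cells, the addition of DdBIC gave 1 called member, BTG1, where 6.80% of all genes tested were called. BTG1 was higher by 0.47 ± 0.04 (edgeR adjusted p = 2.85e-05). CDKN1A was at 0.23 ± 0.07 (adjusted p = 0.0713), GADD45B at 0.25 ± 0.10 (adjusted p = 0.170) and GADD45A at 0.21 ± 0.17 (adjusted p = 0.559). CDKN1A and PPM1D passed the threshold in DESeq2, and CDKN1A also in a fit of these 2 groups alone.

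**Figure D3:**
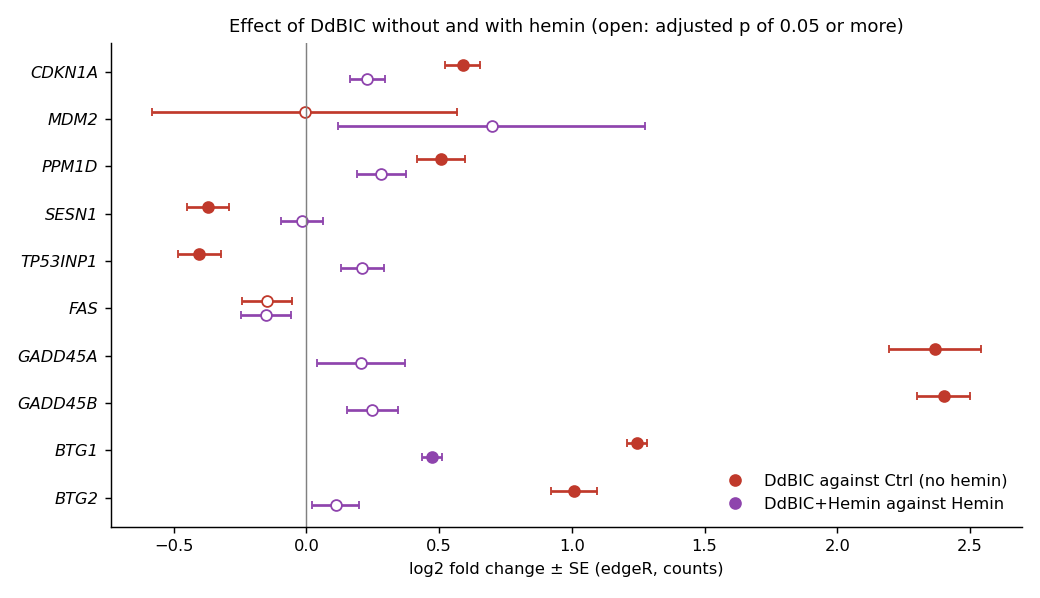
Log2 fold change ± SE of each member for DdBIC against Ctrl and for DdBIC+Hemin against Hemin, from edgeR on counts (n = 3 libraries per group), with open symbols where the adjusted p was 0.05 or more. GADD45A and GADD45B lie near 2.4 without hemin and at 0.21 and 0.25 with it, while BTG1 stays above 0 in both.

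Whether the DdBIC effect differed with and without hemin was tested directly, as the effect among hemin-treated cells minus the effect in their absence. That difference was called for 6 of 10 members, beside 16.6% of all genes tested. It was -2.16 ± 0.24 for GADD45A (edgeR adjusted p = 0.000241), -2.15 ± 0.14 for GADD45B (adjusted p = 2.01e-06), -0.90 ± 0.12 for BTG2 (adjusted p = 0.000540) and -0.77 ± 0.05 for BTG1 (adjusted p = 3.52e-06). The DdBIC effect was thus smaller with hemin for all 4 of the GADD45 and BTG genes.

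For CDKN1A the difference was -0.36 ± 0.09 (edgeR adjusted p = 0.0246). It fell below the threshold in 6 of 18 alternatives, each of which left out 1 library (Ctrl replicate 2 or 3, DdBIC replicate 1, Hemin replicate 2 or 3, or DdBIC+Hemin replicate 2), with adjusted p up to 0.0598. For TP53INP1 it was 0.61 ± 0.12 (adjusted p = 0.00394), from -0.40 ± 0.08 without hemin and 0.21 ± 0.08 with it. The value with hemin did not itself pass the test (edgeR adjusted p = 0.168). SESN1, at 0.36 ± 0.11 (adjusted p = 0.0551), PPM1D, at -0.23 ± 0.13 (adjusted p = 0.290), and FAS, at -0.0022 ± 0.13 (adjusted p = 0.994), were not called. SESN1 passed in 4 of 18 alternatives: DESeq2, upper-quartile scaling, and without Hemin replicate 3 or DdBIC+Hemin replicate 1.

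Per gene length, the members spanned a wide range of abundance. In Ctrl the mean TPM was 60.7 for MDM2, 60.7 for GADD45A, 57.8 for CDKN1A, 48.2 for BTG1, 18.0 for GADD45B, 16.1 for PPM1D, 14.4 for FAS, 7.91 for BTG2, 7.67 for SESN1 and 2.03 for TP53INP1. The first 3 of these overlapped in their libraries, as did MDM2 with BTG1, GADD45B with PPM1D, PPM1D with FAS, and BTG2 with SESN1. In DdBIC the level of GADD45A rose to 308 TPM, the highest of the members, followed by BTG1 at 115, GADD45B at 92.7, CDKN1A at 86.5 and MDM2 at 84.6.

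Across the 12 libraries, log2 CPM of GADD45A and GADD45B had a Pearson r of 0.98, GADD45A and BTG2 one of 0.98, and GADD45A and SESN1 one of -0.89. CDKN1A was less close to the GADD45 genes, with r of 0.71 to GADD45A and 0.68 to GADD45B. These are descriptions over 4 groups of libraries, and most of the spread is that between the groups. Among all genes at 5 CPM or more, those most like GADD45A were CU639417.2, IL6ST and SIK1 (r of 0.99 each), and those most like GADD45B were USPL1, ZCCHC8 and ZNF721 (r of 0.99 each). DGKD, KLF6 and KLF5 were most like BTG1 (r of 0.996, 0.995 and 0.995), IRF2BP2, SAMD4A and HSPA5 most like BTG2 (r of 0.99 each), and LIG4, BEST1 and KLHL18 most like CDKN1A (r of 0.96, 0.96 and 0.95).

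PPM1D was followed most closely by FBXO10, GFPT2 and ZDBF2 (r of 0.97, 0.95 and 0.95), SESN1 by PSMA6, FERMT1 and MRPL40 (r of 0.97, 0.95 and 0.94), TP53INP1 by LLGL1, UBA1 and C1R (r of 0.93, 0.93 and 0.91) and FAS by TOX2, ATF6B and UNC13D (r of 0.91, 0.88 and 0.87). For MDM2 the closest were ZDHHC18, AASS and CDRT4 (r of 0.95, 0.84 and 0.81), on the counts whose divergence from TPM is given above.

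Of 14 regulators of p53, all tested, 2 were higher and 1 lower in DdBIC against Ctrl, a share of 21.4% beside 37.2% of all genes, and their median log2 fold change was 0.03, beside -0.01 over all genes. EP300, an acetyltransferase of p53, was higher by 0.48 ± 0.05 (edgeR adjusted p = 2.45e-05) and lower in DdBIC+Hemin than in DdBIC, at -0.52 ± 0.05 (adjusted p = 1.91e-05). HIPK2, a kinase of p53, fell by 0.30 ± 0.04 in DdBIC against Ctrl (adjusted p = 0.000107). It was at 0.02 ± 0.04 in DdBIC+Hemin against DdBIC (edgeR adjusted p = 0.711) and at -0.28 ± 0.04 in DdBIC+Hemin against Ctrl (adjusted p = 0.000769). In DdBIC+Hemin against DdBIC 2 of the 14 regulators were called, both lower, a share of 14.3% beside 31.9% of all genes. The acetyltransferase gene CREBBP was at 0.60 ± 0.24 in DdBIC against Ctrl (edgeR adjusted p = 0.0779). CDKN2A, whose product ARF binds MDM2, was at 0.58 ± 0.24 there (adjusted p = 0.0831). Both missed the threshold, and both are named here after their values were seen. Their DdBIC libraries did not overlap with Ctrl, which was so for 7146 of the 14287 genes tested. ATM, the kinase that responds to DNA breaks, was higher by 0.15 ± 0.05 from counts (adjusted p = 0.0388) and at -0.06 from TPM (limma adjusted p = 0.646). It kept its direction and its call in 3 of 13 alternatives, and lost the call without any of 5 single libraries (Ctrl replicate 2 or 3, or DdBIC replicate 1, 2 or 3).

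MDM4, the partner of MDM2, was at 26.7, 9.57 and 7.37 CPM in Ctrl and 10.4, 14.6 and 15.5 in DdBIC (-0.11 ± 0.56, edgeR adjusted p = 0.906), and its ratio of count to TPM spread 2.21-fold.

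Of 35 other p53 targets, 33 passed the filter, and in DdBIC against Ctrl 13 were higher, 9 were lower and 11 were not called, with a median log2 fold change of 0.01. The share called was 66.7%, beside 37.2% of all genes. The 4 with the largest changes all rose, while other rises were as small as 0.15 for TIGAR. SESN2, the sestrin that is also a target of the stress factor ATF4, rose by 2.25 ± 0.06 (edgeR adjusted p = 5.11e-10), PLK3, a stress kinase, by 1.94 ± 0.06 (adjusted p = 8.54e-10), PMAIP1, which encodes the BH3-only protein NOXA, by 1.42 ± 0.06 (adjusted p = 3.38e-08) and GDF15, a stress cytokine, by 1.38 ± 0.12 (adjusted p = 6.23e-06). BBC3, which encodes the BH3-only protein PUMA and is named here after its values were seen, was at 15.9 to 16.9 CPM in Ctrl and 18.5 to 48.4 in DdBIC. Its rise of 1.12 ± 0.35 (adjusted p = 0.0315) kept its call in 6 of 13 alternatives and lost it without any 1 of the Ctrl libraries or DdBIC replicate 1 or 2, at 0.83 to 1.14. The 9 that fell were between -0.34 and -0.20, among them BAX at -0.21 ± 0.05 (adjusted p = 0.00566), chosen here after its value was seen as a gene commonly read for p53 activity.

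With hemin added to DdBIC, 8 of these 33 targets were higher than in DdBIC alone, 10 were lower and 15 were not called, and from TPM 4 were higher. The share called was 54.5%, beside 31.9% of all genes (13.5% higher and 18.4% lower). The largest fall was that of BBC3, at -2.15 ± 0.36 (edgeR adjusted p = 0.00167), from 18.5 to 48.4 CPM in DdBIC to 7.81 to 8.10 in DdBIC+Hemin, and it kept its call in all 13 alternatives. SESN2 was lower by -1.04 ± 0.06 (edgeR adjusted p = 2.38e-07), PLK3 by -1.21 ± 0.05 (adjusted p = 4.47e-08) and PMAIP1 by -0.86 ± 0.06 (adjusted p = 2.45e-06). GDF15 was at 0.17 ± 0.12 (adjusted p = 0.318), so that no fall was detectable for it. Hemin alone raised 3 of these targets against Ctrl and lowered 1, where 4.06% of all genes were called. The 1 that was lower was APAF1, a call lost in 9 of 13 alternatives, among them the omission of any 1 Ctrl or Hemin library. The 3 that rose were SESN2 at 0.76 ± 0.06 (edgeR adjusted p = 5.98e-05), GDF15 at 0.70 ± 0.12 (adjusted p = 0.00819) and PMAIP1 at 0.37 ± 0.06 (adjusted p = 0.00804). The DdBIC effect on GDF15 was 0.85 ± 0.12 among hemin-treated cells (adjusted p = 0.00162). Its difference from the effect without hemin, -0.53 ± 0.17, missed the threshold (adjusted p = 0.0542) and passed it in 5 of 18 alternatives: DESeq2, library size alone, and without Ctrl replicate 2, Hemin replicate 1 or DdBIC+Hemin replicate 3 (-0.60 to -0.62).

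**Figure D4:**
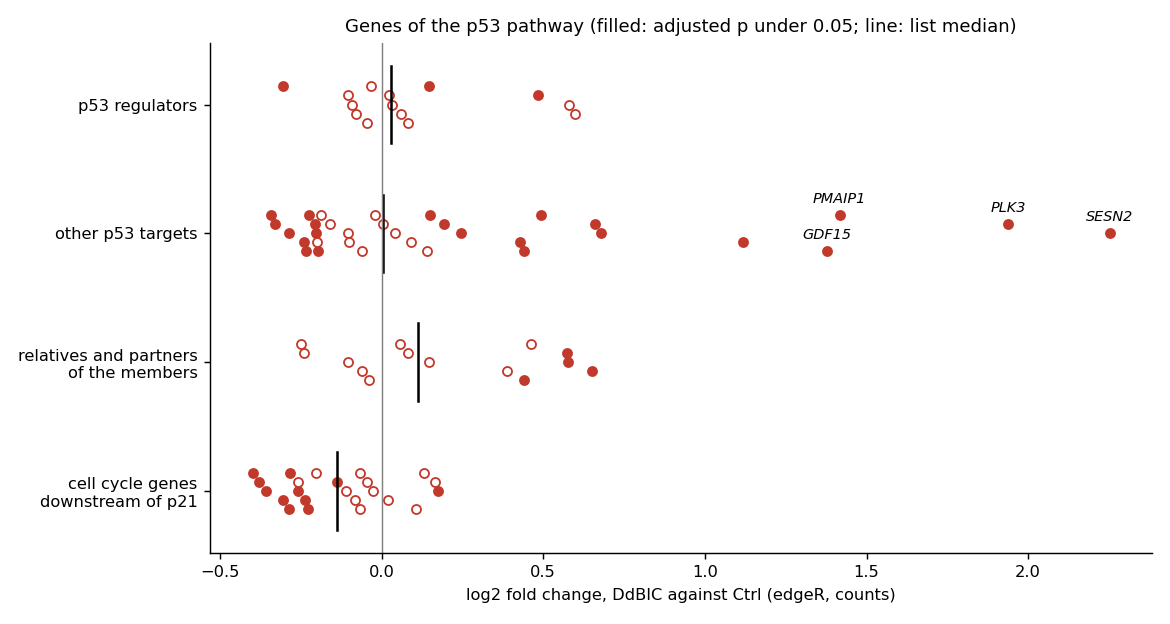
Log2 fold change in DdBIC against Ctrl (horizontal axis) of the tested genes of 4 lists, filled where the edgeR adjusted p was under 0.05, with the list median as a line. Among the other p53 targets SESN2, PLK3, PMAIP1, GDF15 and BBC3 lie above 1 while the median is 0.01, and 10 of the 23 cell cycle genes are filled below 0.

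Among 17 relatives and partners of the members, of which 14 were tested, 4 were called in DdBIC against Ctrl, all higher, and 4 in DdBIC+Hemin against DdBIC, all lower. The share called was 28.6% in each, no higher than over all genes tested (37.2% and 31.9%). TOB1, a BTG family member, rose by 0.65 ± 0.08 (edgeR adjusted p = 6.81e-05), BTG3 by 0.58 ± 0.07 (adjusted p = 0.000119), TOB2 by 0.57 ± 0.05 (adjusted p = 5.55e-06) and CDKN1C, which encodes the p21 relative p57, by 0.44 ± 0.16 (adjusted p = 0.0476). The call of CDKN1C held in 3 of 13 alternatives, with the value at 0.31 without Ctrl replicate 1, and was also lost without Ctrl replicate 2 or any 1 of the DdBIC libraries. In DdBIC+Hemin against DdBIC, TOB1 was at -0.65 ± 0.08, BTG3 at -0.41 ± 0.07, TOB2 at -0.74 ± 0.05 and CDKN1C at -0.77 ± 0.16 (adjusted p of 9.83e-05, 0.00147, 1.21e-06 and 0.00355). Hemin alone lowered TOB1 by -0.54 ± 0.08 against Ctrl (edgeR adjusted p = 0.00320), and among hemin-treated cells DdBIC raised it by 0.55 ± 0.08 (adjusted p = 0.00208). The difference between these DdBIC effects on TOB1 was -0.11 ± 0.11 (adjusted p = 0.593). TOB2 was also lower with hemin alone, at -0.21 ± 0.05 (adjusted p = 0.0383), a call that was lost when any 1 of the Ctrl or Hemin libraries was left out (-0.24 to -0.19).

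Of 24 cell cycle genes that p21 holds down or acts on, 23 were tested, and 10 fell and 1 rose in DdBIC against Ctrl, with a median of -0.14 and 47.8% called, beside 37.2% of all genes (17.2% lower). In DdBIC+Hemin against DdBIC 11 were called, all higher, beside 31.9% of all genes (13.5% higher), and 6 without DdBIC replicate 1. The falls were small. TOP2A, a topoisomerase of dividing cells, fell by 0.40 ± 0.04 (edgeR adjusted p = 6.85e-06), PLK1, a mitotic kinase, by 0.38 ± 0.04 (adjusted p = 4.17e-05), the proliferation marker MKI67 by 0.36 ± 0.05 (adjusted p = 0.000274) and the cyclin gene CCNA2 by 0.30 ± 0.03 (adjusted p = 2.96e-05). In DdBIC+Hemin against DdBIC these genes were higher by 0.23 ± 0.04 for TOP2A, 0.29 ± 0.04 for PLK1, 0.19 ± 0.05 for MKI67 and 0.21 ± 0.03 for CCNA2 (adjusted p of 0.000568, 0.000392, 0.0168 and 0.000617). MKI67 missed the threshold there without DdBIC replicate 1 or 3 and from TPM, at 0.18, 0.17 and 0.16. The gene that rose was E2F1, named here because it was the exception, at 0.18 ± 0.03 (adjusted p = 0.00200).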

How the data were processed

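RNA-seq of A375 cells was analysed from the deposited table, which gives per library a read count, a TPM and an FPKM value for each gene. Per the labels, the authors' processing used Trim Galore, Subread and featureCounts with hg38; versions, and whether strand was used in counting, are not given in the sources used here. Counts as deposited by the authors were tested. TPM values deposited by the authors served for levels per gene length and for a check of MDM2, and the FPKM values deposited by the authors were not used. In R 4.3.3, edgeR 4.0.16 was run on all 12 libraries (filterByExpr, TMM, 1 mean per group, robust quasi-likelihood fit, 8 residual degrees of freedom), with Benjamini-Hochberg adjustment over the 14287 genes tested, and a gene was called at an adjusted p under 0.05. CPM values are scaled by TMM.

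The 6 comparisons were the 5 pairs of groups reported and the difference between the DdBIC effects with and without hemin. The members and gene lists were chosen with earlier results of these data known. Named besides the members were MDM4, up to 4 called genes per list with the largest change in DdBIC against Ctrl at 1 CPM or more, and the 3 genes most correlated with each member at 5 CPM or more, with exceptions marked as such; 2 genes of the fixed lists are not reported here. Alternatives were DESeq2 1.42.0, upper-quartile scaling, library size alone, no filter, a replicate block, a fit of the compared groups alone, each library left out in turn, and, chosen after seeing the data, limma 3.58.1 on log2(TPM + 1). Scripts were tested on simulated counts, on which DESeq2 made more false calls than its nominal rate and edgeR did not. Coordinates are those of the deposited table. Start and end equal those of GENCODE 29 for 9 of the 10 members, and for GADD45B the end alone does. With 37951275 to 44358912 counts per library, each member had at least 155 counts in every library.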

Additional observations from a re-analysis of the deposited data

Results flagged for a closer look

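A test of the difference itself, the DdBIC effect in hemin-treated cells minus that in cells without hemin, passed for 6 of the members. It passed for 16.6% of all genes tested. The effects on these 6 members thus differed between the 2 settings. On the log2 scale the difference was -2.16 for GADD45A, -2.15 for GADD45B, -0.90 for BTG2, -0.77 for BTG1 and -0.36 for CDKN1A, where the rise with DdBIC was smaller when hemin was present. It was 0.61 for TP53INP1, where DdBIC gave -0.40 without hemin and 0.21 with it, the latter not called (edgeR adjusted p = 0.168). Over the 18 alternatives run for this difference, the value for GADD45A stayed between -2.33 and -2.04, for GADD45B between -2.27 and -2.06, for BTG2 between -0.97 and -0.81, for BTG1 between -0.81 and -0.72 and for TP53INP1 between 0.38 and 0.67, each past the threshold. For CDKN1A it stayed between -0.43 and -0.30 and was past the threshold in 12 of the 18. In the main analysis CDKN1A was not detectably lower in DdBIC+Hemin than in DdBIC (-0.07, edgeR adjusted p = 0.480). It was higher in Hemin than in Ctrl (0.29, edgeR adjusted p = 0.0373), the call described above as lost in some alternatives. No other explanation of these differences was tested.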

How the results depend on the processing

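Each member called in the main analysis for DdBIC+Hemin against DdBIC, or for DdBIC against Ctrl, kept its direction and its call in all 13 alternatives. Hemin against Ctrl gave 580 called genes in the main analysis, 322 from TPM with limma and 272 to 373 with 1 library left out, and 0 called members from TPM with limma and in the fit of these groups alone, and 0 to 1 with 1 library left out. DdBIC+Hemin against Hemin gave 971 called genes in the main analysis and 1251 in DESeq2. It gave 569 in the fit of these groups alone and 612 to 793 with 1 library left out. Called members were 1 in the main analysis, 3 in DESeq2 and 2 in the fit of these groups alone. The cause of the changes of sign was not tested. From TPM, MDM2 was at 0.49 in DdBIC against Ctrl, 0.092 in DdBIC+Hemin against Ctrl and -0.25 in the difference between DdBIC effects, MDM4 at 0.11 and ATM at -0.063 in DdBIC against Ctrl. Also from TPM, SESN1 was at -0.023, TP53INP1 at -0.0094 and FAS at 0.051 in DdBIC+Hemin against Ctrl. TP53INP1 was at -0.0043 in DdBIC+Hemin against Ctrl by library size alone, and the difference between DdBIC effects for FAS was 0.0078 in DESeq2 and 0.050 under upper-quartile scaling. With 1 library left out, MDM2 ranged from -0.29 to 0.42 in DdBIC against Ctrl, -0.52 to 0.19 in DdBIC+Hemin against DdBIC and -0.26 to 0.14 in DdBIC+Hemin against Ctrl, and FAS from -0.12 to 0.091 in DdBIC+Hemin against Ctrl and -0.11 to 0.10 in the difference between DdBIC effects. SESN1 ranged from -0.023 to 0.097 in DdBIC+Hemin against Ctrl, -0.083 to 0.057 in DdBIC+Hemin against Hemin and -0.012 to 0.10 in Hemin against Ctrl, TP53INP1 from -0.022 to 0.063 in DdBIC+Hemin against Ctrl, MDM4 from -0.42 to 0.67 in DdBIC against Ctrl, and HIPK2 from -0.010 to 0.066 in DdBIC+Hemin against DdBIC. In DdBIC against Ctrl, the alternatives gave 10 to 12 other p53 targets higher and 6 to 11 lower, 3 to 5 relatives higher, 8 to 14 cell cycle genes lower and 1 to 3 regulators higher.

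No shift shared by replicate number was visible. Over 18 pairs of libraries with the same number, the correlation of their deviations from the group means lay between -0.05 and 0.08. Such values cannot show whether libraries with the same number were handled together. With a replicate block, MDM2 was at 0.030 in DdBIC+Hemin against DdBIC, in DdBIC against Ctrl MDM4 was at 0.16 and BBC3 at 1.09 (edgeR adjusted p = 0.0535, no longer called), TOB2 was at -0.21 in Hemin against Ctrl (adjusted p = 0.0677, no longer called), 8, 1, 7, 1, 3 and 6 members were called in the 6 comparisons, as without it, and 5084 genes were called in DdBIC against Ctrl beside 5310.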
